A study of Mus musculus with 12 samples.

Results

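The mouse mitochondrial genome encodes 13 proteins, 2 ribosomal RNAs and 22 transfer RNAs, and the count files hold a row for each of these 37 genes under a symbol that starts with mt-. All 37 rows were taken, out of 53546 rows in each file. The samples are serum RNA from normal mice and from mice with colorectal cancer. The labels list 6 biological replicates of each, and each came from another mouse according to the series text. Of strain, age, sex and the way the tumours arose the sources used here say nothing, and the headings of the count columns say blood where the labels say serum. Colorectal cancer replicates 5 and 6 had identical counts in all 53546 rows and were counted as 1 sample, named replicate 6 below, which left 6 normal and 5 colorectal cancer libraries.

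The mitochondrial genome is a small circle that is copied into long RNAs from both strands. Most genes lie on 1 strand, on which the ribosomal RNAs also lie, while mt-Nd6 and some transfer RNAs are read from the other. Transfer RNAs lie between the longer genes, and cutting them out releases the ribosomal RNAs and messenger RNAs. The proteins are all subunits of respiratory complexes. Complex I, the NADH dehydrogenase, passes electrons from NADH into the membrane, complex III moves them on to cytochrome c, complex IV, the cytochrome c oxidase, passes them to oxygen, and complex V makes ATP.

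Library totals ran from 2889205 to 20774889 counts. A single row, that of the olfactory receptor gene Olfr648, ranged from 7969078 to 17324370 counts in 6 libraries (normal replicates 2 and 3, colorectal cancer replicates 1, 2, 4 and 6) and 3247 to 5150 in the other 5. That division is not balanced between the groups. Levels scaled by TMM (trimmed mean of M-values) and the main test of single rows kept the row Olfr648. Shares of the total leave it out for that reason, which gave totals of 2885958 to 7033966 counts. Colorectal cancer libraries were deeper on average (5391620 ± 1290780 counts, SD, n = 5) than normal ones (3399250 ± 444113, SD, n = 6), with overlap, and the part of depth in the differences was not tested. Values are also given within the high and the low set of libraries by Olfr648 counts. The mt- symbols matched 37 of 37 mitochondrial genes of the annotation, and every protein row held many counts in every library. Many nuclear rows were listed at 0 in all 11 libraries, among them Tfam and Polrmt, which cells with mitochondria need to transcribe the mitochondrial genome. Whether the nuclear row names are right was not tested, so a value of a nuclear row belongs to the row under that name, and a 0 says nothing firm about the gene. For the row, a count of 0 allows up to 0.025 counts per 1000000 (CPM), for counting error only. That bound is over the summed total of 119956737 counts with Olfr648 included, and it is higher over totals without Olfr648. Serum is a fluid without cells, yet some markers of blood cells held counts. The 10 platelet markers summed to 3776 to 6006 TMM-scaled CPM in normal and 2100 to 3094 in colorectal cancer libraries. Most of that was in the row Gng11, and Pf4, Ppbp, Gp9, Treml1 and Nrgn were at 0 in all 11 libraries.

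The share of mitochondrial RNA in the libraries overlapped between the groups, but its make-up differed. The ribosomal RNA rows held a smaller part of the mt- counts in colorectal cancer, and the messenger RNA rows a larger part. Within the messenger RNAs the complex I rows took a larger share and the complex IV rows a smaller one. Single rows were tested across the whole table, and how many messenger RNA rows passed depended on the scale. On each scale their median difference was near that of all rows, while mt-Rnr2 lay below it.

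All mt- rows together held 23.0 to 31.2% of the total without Olfr648 in normal libraries, with a median of 27.1%. In colorectal cancer replicates 1, 2, 3, 4 and 6 they held 27.6, 28.2, 23.1, 24.6 and 26.2%. The groups overlapped, with means of 27.1% ± 3.01 (SD, n = 6) and 25.9% ± 2.11 (SD, n = 5). The order of the groups turned between the sets of libraries: among those with high Olfr648 counts the means were 24.2% in normal and 26.6% in colorectal cancer, and among those with low counts they were 28.6% and 23.1%, the latter from replicate 3 alone.

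**Figure D1:**
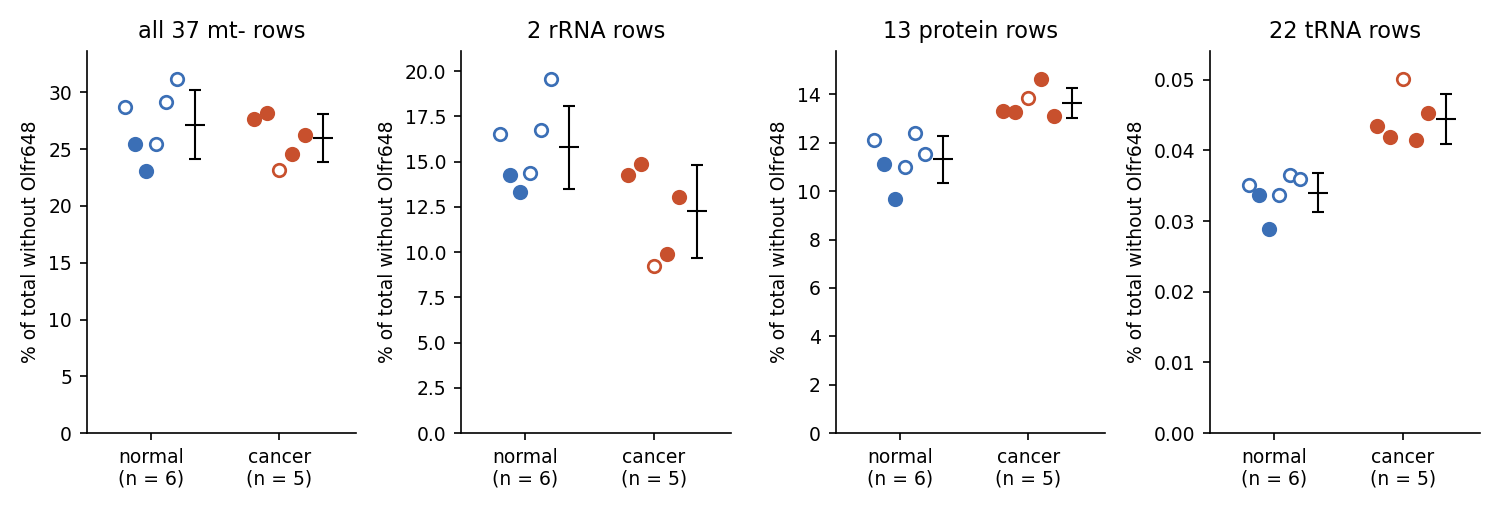
Percent of the library total without Olfr648 in all mt- rows, the ribosomal RNA rows, the messenger RNA rows and the transfer RNA rows, with 1 point per library; filled points are libraries with high Olfr648 counts, open points those with low counts, and bars are the mean ± SD of 6 normal and 5 colorectal cancer libraries. The groups overlap for all mt- rows and for ribosomal RNA, and do not overlap for messenger RNA (9.69 to 12.4% against 13.1 to 14.6%) or transfer RNA.

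The ribosomal RNA rows are mt-Rnr1, which encodes the RNA of the small mitochondrial ribosomal subunit (chrM:70-1024, plus strand, GENCODE M21 on mm10), and mt-Rnr2, which encodes that of the large subunit (chrM:1094-2675). Together they held 56.0 to 62.8% of mt- counts in normal libraries, with a median of 57.6%. In colorectal cancer replicates 1, 2, 3, 4 and 6 they held 51.6, 52.7, 39.9, 40.2 and 49.8%. The groups did not overlap, and replicates 3 and 4 were the lowest. The 13 messenger RNA rows mirrored this, at 37.1 to 43.8% of mt- counts (median 42.3%) in normal libraries and 48.2, 47.1, 59.9, 59.6 and 50.0% in colorectal cancer.

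Ribosomal RNA counts stood to messenger RNA counts at a ratio of 1.40 ± 0.151 (SD, n = 6) in normal and 0.905 ± 0.218 (SD, n = 5) in colorectal cancer libraries. The lowest normal ratio was 1.28 and the highest colorectal cancer ratio 1.12. On the log2 scale the ratio fell by 0.65 (two-sided exact permutation p = 0.00433, adjusted p = 0.00577 over 8 measures), and 0.00433 is the smallest p that 462 splits of 11 libraries can give. Per kb of gene length the ratio was 6.27 ± 0.679 against 4.07 ± 0.982. Without colorectal cancer replicates 3 and 4, a choice made after seeing the data, the difference was -0.39 (exact p = 0.0238). That is again the smallest p the libraries left can give.

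The same order held in both sets of libraries. With high Olfr648 counts the ratio was 1.28 and 1.37 in the 2 normal libraries and 0.675 to 1.12 in 4 colorectal cancer libraries. With low counts it was 1.31 to 1.69 in 4 normal libraries and 0.667 in the single colorectal cancer library. The 6 high libraries alone cannot pass, since the smallest p they allow is 0.133.

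**Figure D2:**
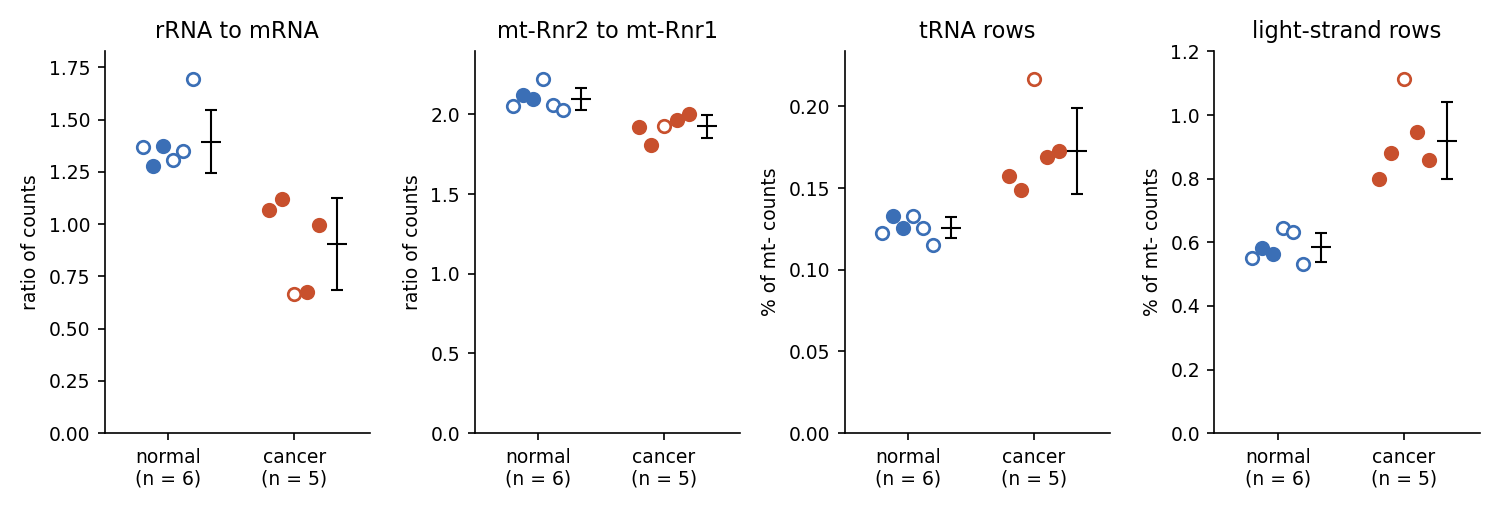
Count ratio of ribosomal to messenger RNA, count ratio of mt-Rnr2 to mt-Rnr1, and percent of mt- counts in the transfer RNA rows and in the light-strand rows (mt-Nd6 and 8 transfer RNAs), with 1 point per library, filled where Olfr648 counts were high, and bars for the mean ± SD of 6 normal and 5 colorectal cancer libraries. The groups do not overlap in any of the 4 panels; the ratio of ribosomal to messenger RNA lies between 1.28 and 1.69 in normal and between 0.667 and 1.12 in colorectal cancer libraries.

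Of the 2 ribosomal RNAs, mt-Rnr2 differed more. It held 38.1 to 42.1% of mt- counts in normal libraries (median 38.9%) and 33.9, 33.95, 26.3, 26.7 and 33.2% in colorectal cancer, with no overlap. In TMM-scaled CPM it stood at 52619 to 85255 (median 57220) in normal and at 41890, 40285, 28414, 26980 and 38033 in colorectal cancer libraries. Here too every colorectal cancer library lay below every normal one. In edgeR's quasi-likelihood test, Benjamini-Hochberg adjusted over 9565 rows, it fell by 0.81 on the log2 scale (SE 0.16, adjusted p = 0.0169), a 1.76-fold lower level. The call was lost with Olfr648 left out and totals alone as scale (log2 difference -0.41, adjusted p = 0.0604), with the division by Olfr648 counts as a covariate (-0.78, adjusted p = 0.109), with no filter (adjusted p = 0.117), with the replicate number as a block (adjusted p = 0.0550) and in the high Olfr648 libraries alone (adjusted p = 0.298).

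mt-Rnr1 stood at 25120 to 42009 TMM-scaled CPM (median 26760) in normal libraries and at 21830, 22272, 14763, 13720 and 18980 in colorectal cancer. The groups did not overlap, but the row did not pass edgeR's quasi-likelihood test (log2 difference -0.69, SE 0.17, Benjamini-Hochberg adjusted p = 0.0562). It passed with DESeq2 (adjusted p = 0.00438), with a mean of at least 10 CPM as the filter (adjusted p = 0.0407) and with the repeated file kept (adjusted p = 0.0236). As a share of mt- counts it overlapped, at 17.6 to 20.7% (median 18.7%) in normal and 13.6 to 18.8% in colorectal cancer libraries. The proportion of the ribosomal RNAs differed as well: mt-Rnr2 counts were 2.03 to 2.22 times those of mt-Rnr1 in normal libraries and 1.92, 1.81, 1.92, 1.97 and 2.004 times in colorectal cancer. That ratio fell by 0.12 on the log2 scale (two-sided exact permutation p = 0.00433, adjusted p = 0.00577). The groups stayed apart with high Olfr648 counts (2.09 and 2.12 against 1.81 to 2.004) and with low counts (2.03 to 2.22 against 1.92). The sources used here do not say whether ribosomal RNA was removed when the libraries were made.

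Counts per kb order the messenger RNAs within a library. The highest was mt-Co1, the catalytic core subunit of complex IV, at 36829 ± 3987 CPM of the total without Olfr648 per kb (SD, n = 11 libraries of both groups), 2.87 times the next row. It was followed by mt-Co2, another core subunit of complex IV (12836), mt-Atp6 and mt-Atp8 of complex V (12167 and 11010), mt-Cytb, the cytochrome b of complex III (10333), and mt-Co3 of complex IV (9590). The complex I rows came last: mt-Nd1 at 6834, mt-Nd4 at 5662, mt-Nd5 at 3790, mt-Nd2 at 3717, mt-Nd6 at 3151, mt-Nd4l at 3095 and mt-Nd3 at 1349. All 7 complex I rows thus lay below the 6 rows of the other complexes.

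Some neighbours in that order changed places between libraries. mt-Cytb was above mt-Co3 in 8 of 11 libraries, mt-Nd5 above mt-Nd2 in 8, and mt-Nd6 above mt-Nd4l in 4. mt-Co1, mt-Atp6, mt-Co3, mt-Nd1, mt-Nd4, mt-Nd2 and mt-Nd4l were each above the next row in 11 of 11. Levels between rows are uncertain for mt-Co1, mt-Co2, mt-Co3, mt-Atp6, mt-Nd3, mt-Nd4l and mt-Nd4. These 7 genes have copies in the nuclear genome at 99% identity or more over at least 100 bases, in a block at chr1:24611535-24616197 (mm10). The rows of those 7 copies held 0 counts, and reads that fit both places cannot be assigned from counts.

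**Figure D3:**
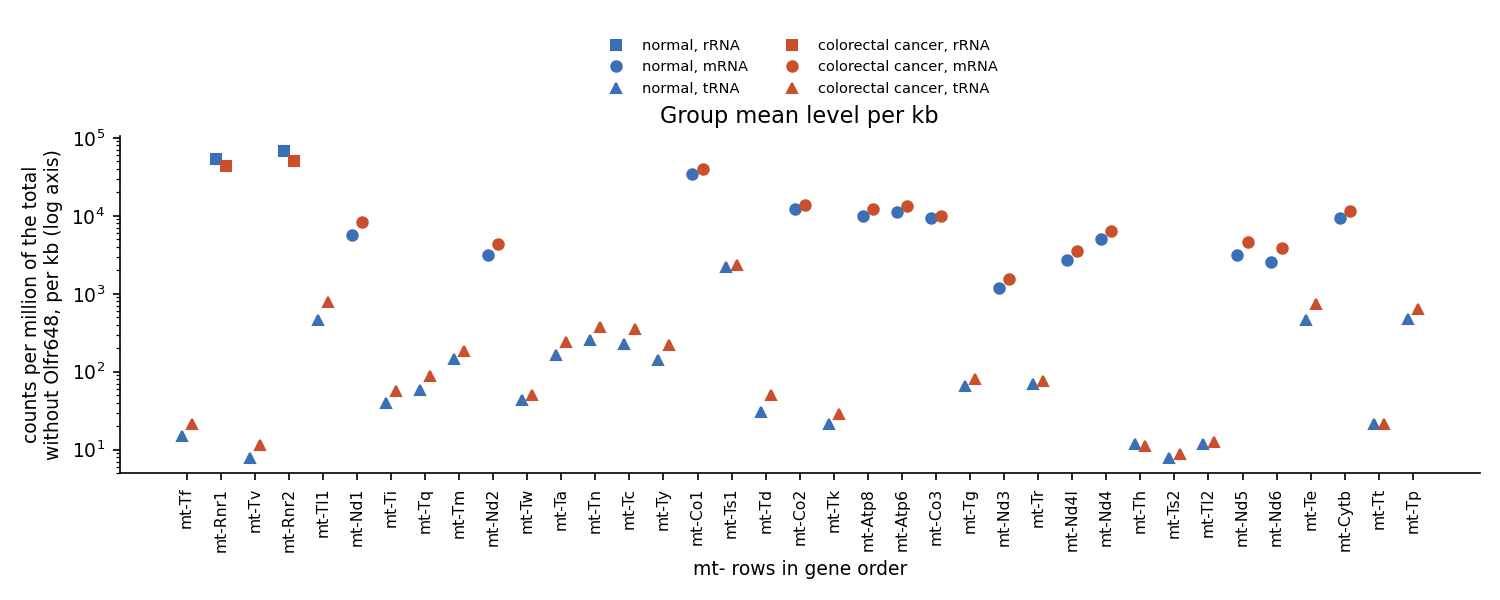
Mean level of the 37 mt- rows in normal and colorectal cancer libraries, in CPM of the total without Olfr648 per kb of gene length, on a log axis, with rows in gene order and squares, circles and triangles for ribosomal, messenger and transfer RNA. mt-Rnr2, mt-Rnr1 and mt-Co1 are the highest, mt-Nd3 is the lowest messenger RNA at 1170 and 1565, and mt-Ts1 is the highest transfer RNA.

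The share of each respiratory complex among the messenger RNA counts was then compared. Complex I, with 7 rows, held 19.7 to 22.5% in normal libraries (median 21.1%) and 23.3, 25.8, 24.0, 23.8 and 25.5% in colorectal cancer. No library of one group reached the other. The share rose from 21.0% ± 0.982 (SD, n = 6) to 24.5% ± 1.10 (SD, n = 5), with a two-sided exact permutation p of 0.00433 and an adjusted p of 0.00577.

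Complex IV, with 3 rows, held 59.1 to 63.2% (median 60.7%) in normal libraries and 58.7, 55.4, 58.3, 58.6 and 56.2% in colorectal cancer. The groups lay close but did not overlap, and the share fell from 60.9% ± 1.45 (SD, n = 6) to 57.4% ± 1.52 (SD, n = 5; two-sided exact permutation p = 0.00433, adjusted p = 0.00577). Complex I counts were 0.346 ± 0.0242 of complex IV counts in normal and 0.427 ± 0.0307 in colorectal cancer libraries. Within the high Olfr648 set that ratio was 0.330 and 0.358 in normal and 0.398 to 0.465 in colorectal cancer libraries. In the low set it was 0.312 to 0.380 in normal libraries and 0.411 in colorectal cancer replicate 3.

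Complexes III and V did not pass. The complex III share was 9.51% ± 0.468 (SD, n = 6) and 9.61% ± 0.355 (SD, n = 5; exact permutation p = 0.675, adjusted p = 0.675), and the complex V share 8.59% ± 0.254 and 8.46% ± 0.179 (exact p = 0.351, adjusted p = 0.401). In the high Olfr648 set complex V held 8.77 and 8.89% in normal and 8.27 to 8.69% in colorectal cancer libraries, without overlap. In the low set it held 8.25 to 8.76% and 8.33%, with overlap. Complex III overlapped in both sets. Shares of a whole move together, so the 8 measures are not independent. Leaving out mt-Co1, a choice made after seeing the data, turned the complex III difference to -0.52 percentage points (exact p = 0.0736) and took complex V to -0.88 (exact p = 0.0173), while complex I (4.71) and complex IV (-3.31) kept their direction. Leaving out the 7 rows with near-identical nuclear copies, also chosen after seeing the data, turned complex III to -3.65 (exact p = 0.00433), so its direction depended on the rows summed.

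**Figure D4:**
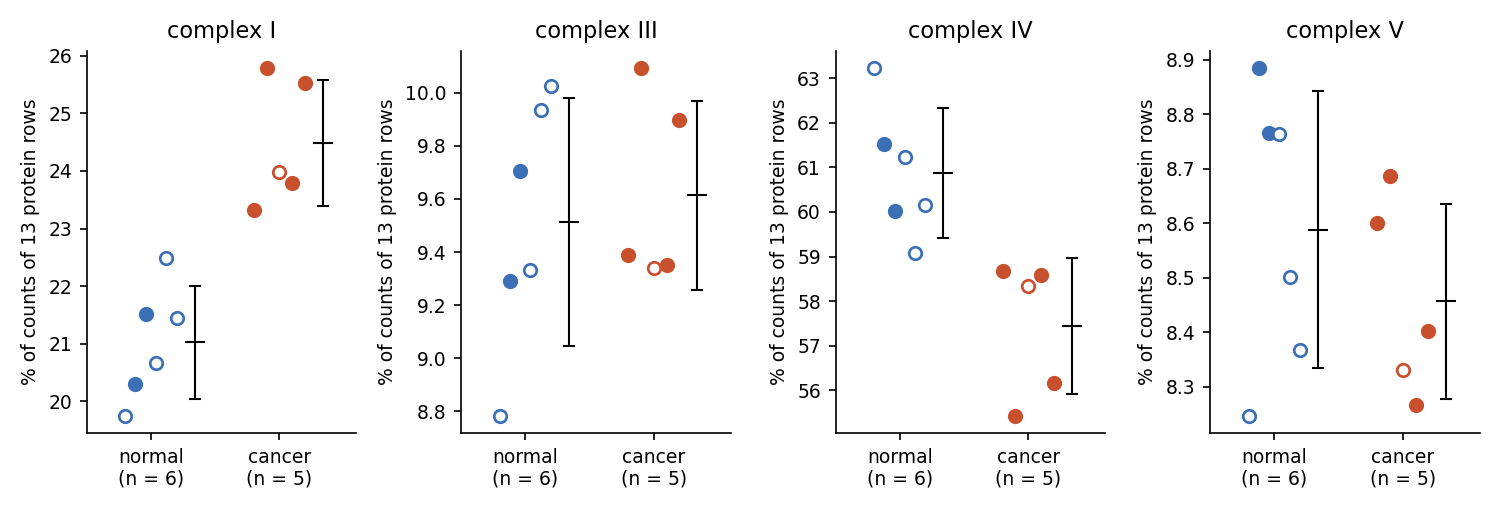
Percent of the messenger RNA counts in the rows of complexes I, III, IV and V, with 1 point per library, filled for libraries with high Olfr648 counts, and bars for the mean ± SD; the axes do not start at 0. Complex I lies between 19.7 and 22.5% in normal and between 23.3 and 25.8% in colorectal cancer libraries, complex IV lies lower in colorectal cancer, and complexes III and V overlap.

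Across the whole table with TMM scaling, 0 of the 13 messenger RNA rows passed edgeR's quasi-likelihood test after Benjamini-Hochberg adjustment, and 34 of the 37 mt- rows had enough counts to be tested. Their log2 differences lay between -0.28 and 0.23 with a median of -0.03, beside a median of 0.04 over all rows. Without adjustment, at p under 0.05, 1 was higher and 2 were lower, and DESeq2 called 0 of the 13. Of all 34 tested mt- rows, 0 were higher (2 without adjustment, 0 by DESeq2) and 1, mt-Rnr2, was lower, where 0.565% of all tested rows were called higher and 1.45% lower. Groups that did not overlap were seen in 2 of the 37 mt- rows, both ribosomal and both lower, against 2.1% of all rows that were lower and 1.54% that were higher.

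As shares of the total without Olfr648, with no further scaling, 12 of 34 tested mt- rows rose and 0 fell (edgeR, where 1 fell at an unadjusted p under 0.05). Of all tested rows 12.9% were called higher and 1.02% lower on that scale. Those that rose were the 7 complex I rows, mt-Cytb, mt-Atp6, mt-Atp8 and 2 transfer RNA rows, while 0 of the 3 complex IV rows passed (1 at an unadjusted p under 0.05). The median log2 difference was 0.37 for the 13 messenger RNA rows and 0.43 for all rows, so the messenger RNAs stood near the middle of the table, and the ribosomal RNAs, at -0.41 and -0.28, below it. In shares that did not overlap, 13 of 37 mt- rows were higher, beside 10.2% of all rows, and 0 lower, beside 0.732%.

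As shares of the mt- counts, 10 rows rose: the 7 complex I rows, mt-Cytb and 2 transfer RNA rows. mt-Rnr2 fell by 0.35 (SE 0.10, edgeR quasi-likelihood Benjamini-Hochberg adjusted p = 0.0400). Of all tested rows 9.51% were higher and 0.648% lower on this scale, and the median of all rows was 0.49, against 0.43 for the messenger RNAs and 0.56 for the complex I rows alone. Groups without overlap were found in 15 of 37 mt- rows that were higher, beside 10.7% of all rows, and in 1 that was lower, beside 0.408%.

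**Figure D5:**
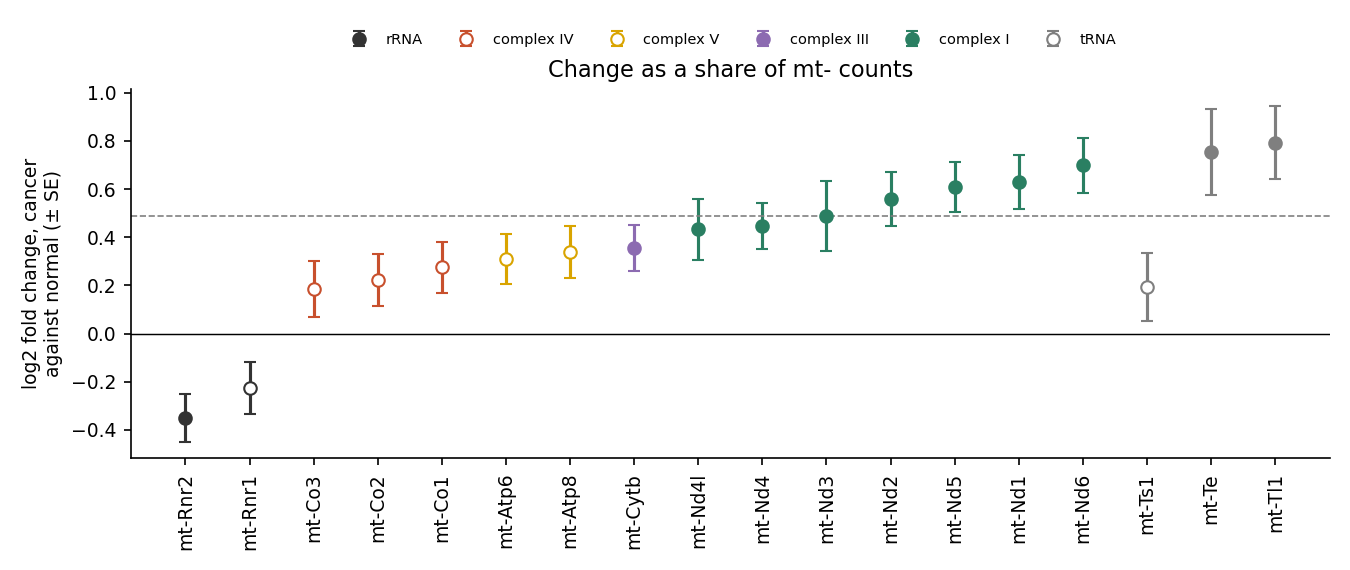
Log2 difference, colorectal cancer minus normal, of the ribosomal and messenger RNA rows and 3 transfer RNA rows as shares of mt- counts, with standard errors from edgeR; filled points have an adjusted p under 0.05 and the dashed line is the median of all tested rows, 0.49. Of the protein rows mt-Nd6 (0.70) and mt-Nd1 (0.63) lie highest and the complex IV rows lowest, between 0.18 and 0.27; mt-Rnr1 and mt-Rnr2 lie below 0.

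Among the complex I rows, mt-Nd6 (chrM:13552-14070, minus strand) differed most as a share of mt- counts. It is the only protein gene read from the strand opposite the ribosomal RNAs. It held 0.441 to 0.538% of mt- counts in normal libraries (median 0.470%) and 0.680, 0.768, 0.940, 0.812 and 0.727% in colorectal cancer. The groups were well apart, and the log2 difference was 0.70 (SE 0.12, edgeR quasi-likelihood Benjamini-Hochberg adjusted p = 0.0102). On the TMM scale the same row was at 0.23 (adjusted p = 0.399).

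mt-Nd1 (chrM:2751-3707), a membrane subunit near the quinone site, held 1.72 to 2.14% of mt- counts (median 2.04%) in normal libraries and 2.67, 2.82, 3.67, 3.39 and 2.87% in colorectal cancer. mt-Nd5 (chrM:11742-13565), a proton-pumping subunit, held 1.95 to 2.37% (median 2.07%) and 2.77, 3.09, 3.26, 3.70 and 3.31%. Neither overlapped, with log2 differences of 0.63 and 0.61 (edgeR adjusted p = 0.0114 and 0.0102). mt-Nd2 and mt-Nd4 encode proton-pumping subunits too. mt-Nd2 held 1.06 to 1.34% (median 1.22%) in normal and 1.51, 1.58, 2.03, 1.89 and 1.87% in colorectal cancer libraries, and mt-Nd4 2.38 to 2.73% (median 2.53%) and 3.08, 3.33, 3.79, 3.69 and 3.38%. Both were apart, with log2 differences of 0.56 and 0.45 (edgeR adjusted p = 0.0153 and 0.0177). The median of all tested rows on this scale was 0.49. With TMM scaling mt-Nd1, mt-Nd5, mt-Nd2 and mt-Nd4 were at 0.17, 0.14, 0.09 and -0.02 and did not pass (edgeR adjusted p = 0.488, 0.657, 0.817 and 0.972).

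The least abundant complex I rows passed narrowly. mt-Nd3 (chrM:9459-9806) held 0.122 to 0.167% of mt- counts (median 0.155%) in normal and 0.196, 0.185, 0.283, 0.225 and 0.173% in colorectal cancer libraries (log2 difference 0.49, edgeR adjusted p = 0.0491). mt-Nd4l (chrM:9877-10173) held 0.263 to 0.354% (median 0.280%) and 0.355, 0.378, 0.393, 0.474 and 0.428% (0.43, adjusted p = 0.0453). Neither pair of groups overlapped, though the nearest libraries of mt-Nd4l were 0.354 and 0.355%. On the TMM scale mt-Nd3 and mt-Nd4l were at 0.03 and -0.03.

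mt-Cytb (chrM:14145-15288), the one mitochondrially encoded subunit of complex III, held 3.71 to 4.22% of mt- counts (median 4.06%) in normal and 4.53, 4.76, 5.59, 5.57 and 4.95% in colorectal cancer libraries. The groups did not overlap, and the row rose by 0.35 on this scale (SE 0.10, edgeR adjusted p = 0.0371), but it stood at -0.11 with TMM scaling.

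In complex IV, mt-Co1 (chrM:5328-6872) held 17.3 to 20.9% of mt- counts (median 19.9%) in normal and 22.2, 20.4, 27.0, 27.6 and 21.8% in colorectal cancer libraries. Replicate 2 lay within the normal range, and the row did not pass (log2 difference 0.27, edgeR adjusted p = 0.0971). mt-Co3, a structural subunit, overlapped as well, at 2.29 to 2.86% (median 2.75%) and 2.76, 2.55, 3.69, 3.37 and 2.89% (0.18, adjusted p = 0.300). mt-Co2 overlapped too, at 2.70 to 3.35% and 3.18 to 4.24%. With TMM scaling the 3 rows lay between -0.28 and -0.19.

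The complex V genes mt-Atp8 (chrM:7766-7969) and mt-Atp6 (chrM:7927-8607) encode membrane subunits of the ATP synthase and share an RNA on which their reading frames overlap. The stretch shared by both genes is printed because reads that fall within it fit both rows. It runs from chrM:7927-7969 (mm10, plus strand, from the GENCODE M21 transcripts), and capitals mark the first codon of mt-Atp6 and the last codon of mt-Atp8.

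overlap of mt-Atp8 and mt-Atp6: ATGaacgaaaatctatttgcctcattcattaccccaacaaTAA

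mt-Atp8 held 0.653 to 0.817% of mt- counts (median 0.777%) in normal and 0.892, 0.879, 1.03, 1.09 and 0.919% in colorectal cancer libraries, and mt-Atp6 2.45 to 3.08% (median 2.85%) and 3.26, 3.21, 3.96, 3.84 and 3.28%. Both pairs of groups were apart, but neither row passed (log2 differences 0.34 and 0.31, edgeR adjusted p = 0.0570 and 0.0666). The count ratio of mt-Atp8 to mt-Atp6 was 0.268 ± 0.0106 (SD, n = 6) in normal and 0.274 ± 0.00924 (SD, n = 5) in colorectal cancer libraries. mt-Nd4l and mt-Nd4, which also share an RNA and overlap from 10167 to 10173, had a ratio of 0.118 ± 0.0110 and 0.117 ± 0.0102. Both ratios overlapped between the groups. That of mt-Nd6 to mt-Nd5, which lie on opposite strands, overlapped too (0.229 ± 0.0157 and 0.244 ± 0.0283), so overlap was not particular to a shared RNA.

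The 22 transfer RNA rows held few counts. Together they made up 0.115 to 0.133% of mt- counts in normal libraries (median 0.126%) and 0.157, 0.149, 0.217, 0.169 and 0.173% in colorectal cancer. The groups did not overlap, and the share rose from 0.126% ± 0.00659 (SD, n = 6) to 0.173% ± 0.0263 (SD, n = 5; two-sided exact permutation p = 0.00433, adjusted p = 0.00577). It was 0.126 and 0.133% against 0.149 to 0.173% in the high Olfr648 set, and 0.115 to 0.133% against 0.217% in the low set. On this scale the messenger RNA rows rose as well, from a mean of 41.8% in normal to 53.0% in colorectal cancer libraries. The ribosomal RNA rows fell from 58.1% to 46.9%. Shares of a whole move together, and a rise of transfer RNA apart from that fall was not tested. A mature transfer RNA is shorter than a usual library insert and heavily modified, so these counts need not follow its amount.

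Counts were spread unevenly over the transfer RNAs. Rows on the light strand, the one opposite the ribosomal RNAs, held 79.9% ± 1.42 (SD, n = 6) of transfer RNA counts in normal and 77.4% ± 2.24 (SD, n = 5) in colorectal cancer libraries, with overlap. The sequences of the 3 rows with the most counts, which decode serine, leucine and glutamate codons, show what the counts were assigned to. They are 5′ to 3′ as DNA (GENCODE M21 transcripts, mm10), with the anticodon in capitals. mt-Ts1 is at chrM:6870-6938 on the minus strand, mt-Tl1 at chrM:2676-2750 on the plus strand and mt-Te at chrM:14071-14139 on the minus strand.

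mt-Ts1: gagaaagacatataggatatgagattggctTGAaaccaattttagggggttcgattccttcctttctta

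mt-Tl1: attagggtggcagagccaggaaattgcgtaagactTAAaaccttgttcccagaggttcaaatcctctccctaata

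mt-Te: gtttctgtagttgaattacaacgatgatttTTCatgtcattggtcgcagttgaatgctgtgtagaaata

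mt-Tl1 lies directly between mt-Rnr2 and mt-Nd1. It held 0.0104 to 0.0149% of mt- counts in normal libraries (median 0.0135%) and 0.0211, 0.0216, 0.0276, 0.0209 and 0.0212% in colorectal cancer. The groups were far apart and the row rose by 0.79 on this scale (SE 0.15, edgeR adjusted p = 0.0126), while its neighbour mt-Rnr2 fell. On the TMM scale mt-Tl1 overlapped, at 16.1 to 22.01 and 21.1 to 29.9 CPM (log2 difference 0.34, adjusted p = 0.272).

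mt-Te, which lies between mt-Nd6 and mt-Cytb on the strand of mt-Nd6, held 0.0102 to 0.0139% (median 0.0116%) and 0.0153, 0.0166, 0.0287, 0.0183 and 0.0201%, without overlap (log2 difference 0.75, edgeR adjusted p = 0.0252). On the TMM scale mt-Te was at 0.28 (edgeR adjusted p = 0.656). mt-Ts1 lies next to mt-Co1 on the other strand and shares only its last bases (chrM:6870-6872). Its groups overlapped at 0.0494 to 0.0627% (median 0.0555%) and 0.0617, 0.0514, 0.0803, 0.0690 and 0.0561% (log2 difference 0.19, edgeR adjusted p = 0.370). mt-Ts1 and the other 16 tested transfer RNA rows did not pass on the scale of mt- counts. mt-Ta, mt-Tn and mt-Tp were, with mt-Tl1 and mt-Te, the 5 of 22 transfer RNA rows without overlap, all higher. Of all tested rows 10.7% were higher without overlap on this scale. mt-Tv, mt-Th and mt-Ts2 were too low to test, with 0 to 8 counts in a library.

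Light-strand rows, mt-Nd6 and 8 transfer RNAs, held 0.532 to 0.645% of mt- counts in normal libraries (median 0.573%) and 0.799, 0.880, 1.11, 0.947 and 0.859% in colorectal cancer. No library of one group reached the other, and the share rose from 0.585% ± 0.0459 (SD, n = 6) to 0.920% ± 0.120 (SD, n = 5; two-sided exact permutation p = 0.00433, adjusted p = 0.00577). In the high Olfr648 set it was 0.564 and 0.583% against 0.799 to 0.947%, and in the low set 0.532 to 0.645% against 1.11%. The ribosomal RNA rows fell on this scale, and the median log2 difference of all tested rows was 0.49. A rise of the light-strand rows apart from that was not tested. mt-Nd6 carries most of the light-strand counts. Its count ratio to mt-Nd5, a neighbour on the other strand that shares only chrM:13552-13565 with it, was 0.229 ± 0.0157 and 0.244 ± 0.0283 with overlap. The sources used here do not say whether counting used the strand, so reads of opposite strands cannot be told apart.

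Across the 13 messenger RNA rows the change in share of mt- counts went down with the level per kb (Spearman rho -0.71). It was near 0 against gene length (0.07) and, over the 12 genes on the strand of the ribosomal RNAs, against position (0.04). These rows share libraries and depth, and the values are descriptions of 13 and 12 points. The 7 complex I rows were also the lowest by level, so level and complex cannot be told apart here.

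Nuclear genes that serve the mitochondrial genome were counted in 4 lists, by the same edgeR test with TMM scaling, in which 0.565% of all tested rows were higher and 1.45% lower. Their values are those of rows under these names, which were not tested. Of 17 genes for transcription and upkeep of the mitochondrial genome 4 were tested and 0 passed (edgeR), also 0 without adjustment or by DESeq2, and 8 rows were at 0 throughout; the most abundant, the polymerase subunit gene Polg2, was at 23.3 ± 4.26 (SD, n = 6) and 28.8 ± 6.63 (SD, n = 5) CPM. Of 26 genes for mitochondrial RNA processing and stability 8 were tested and 0 passed (edgeR), also 0 without adjustment or by DESeq2, with Mtpap, the mitochondrial poly(A) polymerase, at 59.8 ± 5.46 and 53.6 ± 4.72. Of 79 mitochondrial ribosomal protein rows 25 were tested, and 1 passed: Mrpl10, a protein of the large subunit, fell from 200.3 ± 53.2 to 82.2 ± 22.7 (log2 difference -1.29, edgeR adjusted p = 0.0128). Without adjustment 2 were higher and 2 lower, and DESeq2 called Mrpl10 alone. The median of the list was 0.23, beside 0.04 for all rows. Of 19 mitochondrial tRNA synthetase genes 10 were tested and 1 passed: Tars2, which charges threonine tRNA, rose from 258 ± 48.3 to 386 ± 34.1 (0.58, adjusted p = 0.0402). Without adjustment 2 were higher, and DESeq2 called Sars2 too (274 ± 38.2 and 359 ± 38.6, edgeR adjusted p = 0.0972). Summed CPM of this list, mostly those 2 rows, did not overlap (498 to 672 and 746 to 938), while the sums of the other lists overlapped.

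The summed levels of 4 lists of blood cell markers did not overlap between the groups. Each sum was mostly that of 1 row, and the shares of all rows called were the 0.565% higher and 1.45% lower given above. Summed TMM-scaled CPM of 12 erythroid markers were 385 to 680 in normal and 102 to 242 in colorectal cancer libraries, with 2 of 5 tested members lower and Hbb-bs, Hbb-bt and Alas2 at 0. Tspan33 held most of that sum (467 ± 103 and 160 ± 50.2) and Hemgn fell as well, while Hba-a1, Epb42 and Gata1 had log2 differences of -0.02, 0.06 and 0.24 and did not pass. The platelet sums given above did not overlap either, with Pf4, Ppbp, Gp9, Treml1 and Nrgn at 0. Of 4 tested members 1, Itga2b, was called lower by edgeR. Without adjustment 3 were lower, and DESeq2 called 3 (Itga2b, Gp6 and Gng11). Gng11, at 3366 ± 698 and 2171 ± 531, did not pass with edgeR (adjusted p = 0.0983). T cell markers, 8 rows, summed to 319 to 510 and 175 to 290, mostly through Cd3e (375 ± 71.0 and 194 ± 47.0). Of 4 tested 1 was lower by edgeR (2 without adjustment, 1 by DESeq2), and Cd8b1 was at 0. Neutrophil markers, 10 rows, summed to 99.05 to 376 and 406 to 711 with 0 of 2 tested called by edgeR (1 higher without adjustment and by DESeq2) and S100a8, S100a9, Ly6g, Csf3r, Retnlg and Camp at 0, mostly through Mmp8 (205 ± 119 and 556 ± 119). Sums of monocyte, B cell, NK cell, hepatocyte and intestinal epithelium markers overlapped. The part of these cells in the mitochondrial differences was not tested, and in bulk RNA fewer cells of a type and less RNA per cell cannot be told apart.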

How the data were processed

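Serum RNA of mice was harvested with TRIzol, and a TruSeq Stranded Total RNA kit was used for the libraries, according to the protocols in the labels. The deposited files hold whole-number counts per gene symbol, taken as read counts that were not normalized, and Trim Galore, HISAT2, StringTie and mm10 are named without versions in the submitters' processing notes. The sources used here do not give the counting step, annotation, strand setting or any rRNA removal. Samples were grouped by the labels.

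Rows were filtered with filterByExpr, scaled by TMM and tested with edgeR 4.0.16 (quasi-likelihood, robust, R 4.3.3). The group was the single term, and p-values were adjusted by Benjamini-Hochberg across 9565 rows, with a threshold of 0.05. Shares of the total without Olfr648 and of mt- counts were fitted with those sums as library sizes. The filter and the TMM scaling used totals with Olfr648 kept, of 2889205 to 20774889 counts, and 34 of 37 mt- rows were testable. The 8 library measures were compared by two-sided exact permutation tests (SciPy 1.17.1). Genes and sequences were taken from GENCODE M21, and nuclear copies were found with BLAST 2.17.0. Python 3.11.15, pandas 2.3.3 and Matplotlib 3.10.9 made the tables and plots.

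The members and lists were chosen with earlier results of these data known. Values by library (each colorectal cancer library, and the lowest, median and highest normal one) are given for the ribosomal rows, rows called on the TMM scale or as shares of mt- counts, the protein rows with the most and fewest counts per kb in each complex, mt-Nd6 and the 3 transfer RNA rows with the most counts; called or most abundant members are named from nuclear lists. Part of the erythroid marker list is not reported here. On simulated data for this comparison, with 200 of 9565 rows changed, 29% of 2-fold and 64% of 4-fold changes were recovered and 3.1% of calls were unchanged rows. The changed rows were drawn at random from all tested rows, so these rates do not give the recovery for mt- rows. Alternatives were DESeq2 1.42.0, other scalings, filters and covariates, the replicate block, the repeated file, subsets of libraries and of rows, and length.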

Additional observations from a re-analysis of the deposited data

Results flagged for a closer look

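In 52 groups of 5 or 6 libraries, the highest or lowest value was set against the others by its gap relative to the range, and 3 stood apart. Chance alone marks about 1 in 20 groups. Normal replicate 6 had a log2 ratio of ribosomal to messenger RNA of 0.76, where the other 5 normal libraries lay between 0.35 and 0.46. The same library had 42.1% of its mt- counts in mt-Rnr2, where the others had 38.1 to 39.1%. Colorectal cancer replicate 3 had 0.0276% of its mt- counts in mt-Tl1, where the other 4 colorectal cancer libraries had 0.0209 to 0.0216%, and it is the single colorectal cancer library with low Olfr648 counts.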

How the results depend on the processing

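Main values are those with TMM scaling, where 1 mt- row, mt-Rnr2, passed edgeR's test. The count of mt- rows past the threshold was 2 with DESeq2, 2 with a mean of at least 10 CPM and 2 with the repeated file kept, each time mt-Rnr1 and mt-Rnr2. It was 12 with totals alone, 11 with the mt- sum as library size, and 0 with no filter, with the Olfr648 division as a covariate or in the high Olfr648 libraries alone. It was 1, mt-Rnr2, each time 1 library was left out (adjusted p 0.0209 to 0.0485). mt-Rnr2 missed the threshold with no filter (adjusted p = 0.117) and in the high libraries alone (0.298). The cause of these differences was not tested.

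The replicate numbers did not pair the libraries: correlations of deviations between same-numbered libraries lay between -0.10 and 0.05, and 1 of 5 colorectal cancer libraries correlated best with its own number. With the number as a replicate block 0 mt- rows passed (mt-Rnr2 at -0.84, adjusted p = 0.0550), mt-Nd3 was at -0.0015 and mt-Nd4l at 0.015.

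The difference in the mt- share of the total (-1.20 percentage points, -2.03 to -0.40 with 1 library left out) was 2.43 in the high libraries alone and -7.92 with Olfr648 kept in the total. In the high libraries alone, where no p under 0.133 is possible, the other differences kept their direction: -0.48 and -0.13 for the log2 ratios of ribosomal to messenger RNA and of mt-Rnr2 to mt-Rnr1, 0.0327 and 0.298 percentage points for the transfer RNA and light-strand shares, 3.70 for complex I and -3.55 for complex IV. With 1 library left out these 6 lay at -0.74 to -0.55, -0.14 to -0.10, 0.0362 to 0.0531, 0.287 to 0.365, 3.13 to 3.75 and -3.79 to -2.93 (exact p 0.00794 to 0.00952). Those p are the smallest the remaining libraries allow. Complex III (0.10) lay at -0.0443 to 0.204 (-0.0443 without normal replicate 1, -0.0184 without colorectal cancer replicate 2), and complex V (-0.13) at -0.199 to -0.0718. After seeing the data, leaving out rows with near-identical nuclear copies put complex III at -3.65 (exact p = 0.00433), and leaving out mt-Co1 put it at -0.52 and complex V at -0.88.

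Single rows that were not called with TMM turned direction with totals alone and with the mt- sum as library size: mt-Co1 to 0.20 and 0.27, mt-Ts1 to 0.12 and 0.19, mt-Atp8 to 0.27 and 0.34, mt-Atp6 to 0.24 and 0.31, mt-Co3 to 0.11 and 0.18, mt-Cytb to 0.28 and 0.35, mt-Nd4l to 0.37 and 0.43 and mt-Nd4 to 0.38 and 0.45. In the high libraries alone mt-Cytb was at 0.013, mt-Nd3 at -0.022, mt-Nd4l at 0.10 and mt-Nd4 at 0.10. mt-Nd4l was at 0.010 with no filter and 0.0012 with Olfr648 left out and TMM, and mt-Nd4 at 0.019 and 0.0100. mt-Nd4 was at 0.059 with the covariate, and mt-Nd3 at -0.015 with the repeated file kept. With 1 library left out mt-Nd3 lay at -0.070 to 0.090, mt-Nd4l at -0.082 to 0.024 and mt-Nd4 at -0.062 to 0.041.

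The depth left mt-Tv, mt-Th and mt-Ts2 untested.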
